A study of Gallus gallus with 6 samples.

Results

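The regenerating feather follicle 4 days after wounding was compared with the feather epithelium of the growth phase in the chicken (Gallus gallus). Each was a single library of total RNA, and the pair made up 2 of the 6 libraries of the study. The groups used here were the follicle at day 4 and at day 2 after the wound, the resting-phase dermal papilla, and the dermal papilla, mesenchymal pulp and epithelium of the growing feather. The labels give no strain, sex, age or number of birds, and do not say whether birds were pooled or how tissues were separated. Records of both tables were joined by their RefSeq transcript, and a record that a table did not list was taken as 0. Of 10964 records listed in at least 1 library, the 6348 with 20 or more counts in either the day 4 follicle or the epithelium were kept. With 1 library in each group no difference has a replicate check, no test was made, and the 95% intervals given below cover counting error only.

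The growing feather is made by an epithelium that lies around a mesenchymal pulp and is driven from the base by the dermal papilla. Basal keratinocytes, held to the basement membrane by hemidesmosomes, divide and feed upper layers that stop dividing, fill with alpha keratins and then with the beta keratins particular to birds and reptiles, and cornify. Pigment cells in the growing epithelium hand melanin to the keratinocytes. The comparison asks which epithelial genes stood at the level of the growing epithelium by day 4 and which lagged.

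Listed counts summed to 1499592 in the day 4 follicle and 2428052 in the growth epithelium, of library totals of 3371065 and 6064791. On day 4 the 10 leading records held 9.56% of listed counts, and in the epithelium 28.6%. Levels were scaled with TMM factors, a trimmed mean of log ratios between libraries, and are given as scaled CPM, counts over the scaled library total, not divided by transcript length. After scaling the effective total of the epithelium was 1.06 times that of day 4, so raw counts of the pair can be read almost directly against each other. The day 4 label names the follicle and the other names the epithelium, so the comparison also sets one tissue label against another. In bulk RNA, fewer cells of a type and less RNA per cell cannot be told apart. The epithelium table and the pulp table were also deeper and had another text layout than the other 4 tables, and tissue and table layout cannot be told apart in this pair.

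A record was called higher or lower on day 4 when its scaled CPM plus 1 differed at least 2-fold. On this rule 1343 records (21.2%) were higher on day 4, 1095 (17.2%) were lower and 3910 (61.6%) lay within 2-fold, around a median log2 ratio of -0.03. The share at growth-phase level, meaning less than 2-fold lower or higher, was 82.8%, and 1.23% of records were at least 8-fold lower. With the deposited RPM values and no TMM scaling the median of all records was 0.69 and 2474 were higher against 393 lower, so that 86.3% of calls were higher in place of 55.1%. All statements below are relative to the TMM scale. Of the 6348 records 877 were kept only by their day 4 count and 587 only by their epithelium count, while 155 were not listed in the epithelium and 35 were not listed on day 4. The 63 records whose larger count was exactly 20 had a median log2 ratio of 0.07 (-2.53 to 2.60), and the 83 left out with a larger count of 19 had 0.34 (-2.47 to 2.54).

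**Figure D1:**
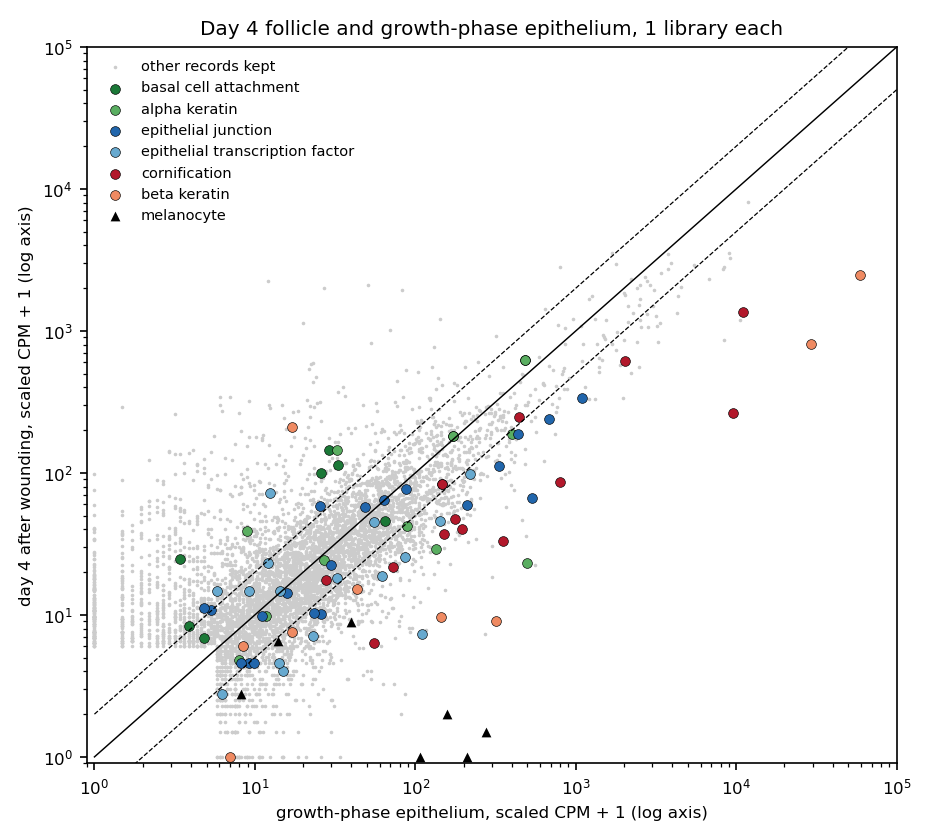
Scaled CPM plus 1 in the day 4 follicle (vertical, log axis) against the growth-phase epithelium (horizontal, log axis) for the 6348 records kept, 1 library each; the solid line marks equal levels and the dashed lines 2-fold. Members of the 6 epithelial lists are coloured and melanocyte genes are triangles: basal attachment genes lie near or above the line, cornification genes lie below it, and beta keratins reach the far lower right.

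6 lists of epithelial genes held 179 names, of which 115 were found in the tables and 76 were kept. Of the 76, 36 (47.4%) were at growth-phase level on day 4, against 82.8% of all records, and 40 (52.6%) lagged at least 2-fold. Of those 40, 12 were at least 8-fold lower. Of the 36, 13 were at least 2-fold higher than in the growth epithelium, 17.1% of the 76 against 21.2% of all records. 5 of the 76 were kept only by day 4 and 8 only by the epithelium. The lists differed widely: the median log2 ratio was 1.11 for basal cell attachment, -0.25 for alpha keratins, -0.93 for junctions, -1.15 for transcription factors, -2.03 for cornification and -2.81 for beta keratins. With the deposited RPM values 55 of the 76 were at growth-phase level, so the number that lagged depends on the scale. On that scale all records shifted up. Of the 6348 records 393 were lower, in place of 1095, and the median log2 ratio was 0.69, in place of -0.03.

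**Figure D2:**
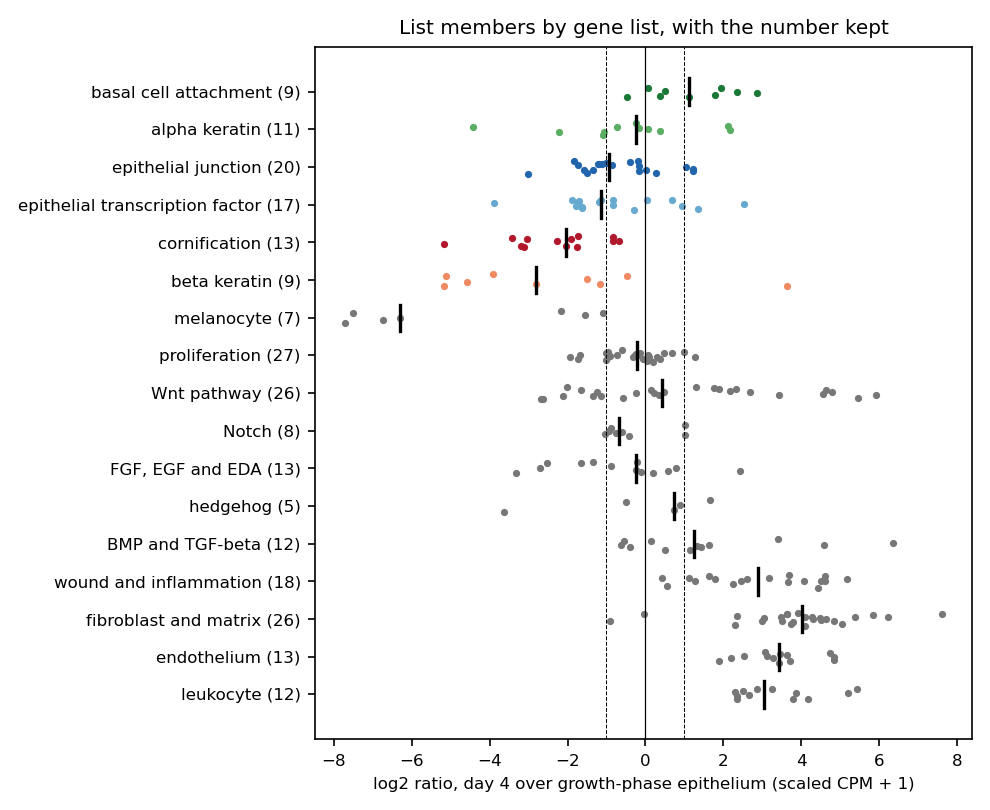
Log2 ratio of day 4 over growth-phase epithelium (scaled CPM plus 1) for the members of 17 gene lists, with the number kept in brackets; each point is a gene, the black bar is the list median and the dashed lines mark 2-fold. Medians of the epithelial lists run from 1.11 for basal attachment to -2.81 for beta keratins, and markers of fibroblasts, endothelium and leukocytes lie to the right.

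Genes of the basal layer were at growth-phase level or above it, and the attachment genes kept were so in the resting papilla and on day 2 too. All 9 members of the basal attachment list that were kept were at that level on day 4, against 82.8% of all records. Of the 9, 5 were at least 2-fold higher on day 4, against 21.2% of all records. Since 3 of the 9 were kept only by their day 4 count, this tally is partly set by the 20-count minimum. A further 6 members were listed with fewer than 20 counts in both libraries or not listed in either. KRT14, the type I keratin of basal keratinocytes, had 2454 counts on day 4 and 1996 in the growth epithelium, 1.30-fold higher (1.23 to 1.38). KRT15, another basal keratin, had 708 and 714 counts (1.05-fold, 0.945 to 1.17). TP63, the transcription factor that maintains stratified epithelium, had 54 and 56 counts (1.02-fold, 0.689 to 1.51). These 3 genes stood at nearly the same level in both libraries. KRT14 also had 2094 counts in the growth papilla and 495 in the pulp, KRT15 124 and 42, and TP63 29 and 7. Scaled, KRT14 stood at 616 CPM in the growth papilla, 623 CPM on day 4 and 479 CPM in the epithelium.

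Several anchoring genes of the basal layer stood higher on day 4 than in the epithelium, as they also did in the resting papilla and on day 2. COL17A1, a transmembrane collagen of hemidesmosomes, had 444 counts on day 4 and 134 in the epithelium, 3.51-fold higher (2.89 to 4.29). LAMA3, the alpha chain of the laminin that hemidesmosomes bind, had 391 and 104 counts (3.98-fold, 3.20 to 4.99). DST, a linker of hemidesmosomes to keratin filaments, had 93 and 10 counts, 9.85-fold higher (5.12 to 21.2). CD151, a tetraspanin that partners laminin-binding integrins, had 569 and 116 counts (5.19-fold, 4.25 to 6.4), and the integrin ITGB6 had 29 and 12 (2.56-fold, 1.27 to 5.51). The ITGB6 interval spans the 2-fold rule. In the resting papilla and on day 2 COL17A1 had 458 and 595 counts, LAMA3 736 and 265, and DST 97 and 100. CD151 had 752 and 918 there, and ITGB6 36 and 24. Some of these genes were also abundant in mesenchyme: CD151 had 993 counts in the growth papilla and 1725 in the pulp, DST 91 and 125, and LAMA3 198 and 217, while COL17A1 had 98 and 47. The part of mesenchymal cells in their day 4 levels was not tested. LAMA5, an alpha chain of a widely expressed laminin, was the member with the lowest ratio, with 178 counts on day 4 and 265 in the epithelium (0.711-fold, 0.585 to 0.863).

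Cell junction genes divided into a group at growth-phase level and a group behind it. Of 20 junction genes kept, 10 were at growth-phase level (82.8% of all records were) and 10 were lower (17.2% of all records). Among the former, 3 were at least 2-fold higher (GJB6, PKP2 and MARVELD3), 15.0% of the 20 against 21.2% of all records. Of the 20, 2 were kept only by day 4 and 3 only by the epithelium, so these tallies are partly set by the 20-count minimum. On the deposited RPM scale 18 of the 20 were at growth-phase level, where 393 of all 6348 records were lower. The desmosomal cadherin DSG2 had 224 counts on day 4 and 198 in the growth epithelium (1.20-fold, 0.985 to 1.46). TJP1, a scaffold of tight junctions, had 248 and 261 (1.01-fold, 0.842 to 1.20). LLGL2, a polarity protein, had 298 and 360 (0.877-fold, 0.749 to 1.02). TJP1 also had 331 counts in the growth papilla and 303 in the pulp, and LLGL2 147 and 293, whereas DSG2 had 9 and 2.

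The 10 lower members of the list included several well-known epithelial genes. E-cadherin (CDH1), the cadherin of adherens junctions, had 229 counts on day 4 and 877 in the growth epithelium, 3.62-fold lower (3.12 to 4.20). EPCAM, an adhesion molecule of epithelial cells, had 257 and 2227 counts and was 8.18-fold lower (7.19 to 9.35), the lowest ratio of the list. The tight junction claudin CLDN1 had 435 and 1383 counts (3.0-fold lower, 2.69 to 3.35), the gap junction gene GJA1 had 1315 and 4604 (3.31-fold lower, 3.11 to 3.52) and the desmosomal gene PERP had 938 and 2842 (2.86-fold lower, 2.66 to 3.08). Desmoplakin (DSP), which ties desmosomes to keratin filaments, had only 14 and 34 counts, and its ratio of 2.29-fold lower carries an interval (1.20 to 4.63) that spans the 2-fold rule. DSG2 and EPCAM had similar counts on day 4, 224 and 257, but 198 and 2227 in the epithelium. In the growth papilla and pulp EPCAM had 54 and 26 counts, CDH1 83 and 36, PERP 84 and 42, and GJA1 742 and 2444. CLDN1 had 66 counts in the papilla and was not listed in the pulp.

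Among 17 epithelial transcription factors kept, 8 were at growth-phase level (82.8% of all records were) and 9 were lower (17.2% of all records). Of the 8, 2 were at least 2-fold higher. The deposited RPM values put 14 of the 17 at growth-phase level, where 393 of all 6348 records were lower. GRHL3, a regulator of barrier formation in mammalian skin, was the furthest behind, with 25 counts on day 4 and 454 in the growth epithelium, 17.1-fold lower (11.5 to 26.8). KLF5 had 96 and 358 counts (3.52-fold lower, 2.80 to 4.46), GATA3 had 176 and 590 (3.17-fold lower, 2.67 to 3.77), MSX2 had 70 and 253 (3.41-fold lower, 2.61 to 4.51) and TFAP2B had 12 and 58 (4.56-fold lower, 2.42 to 9.34). At growth-phase level stood TFAP2A, an early ectodermal factor, with 173 and 226 counts (0.811-fold, 0.661 to 0.993), KLF4 with 324 and 611 (0.562-fold, 0.489 to 0.644) and DLX5 with 68 and 131 (0.550-fold, 0.404 to 0.742). ID1, a target of BMP signalling, had 281 counts on day 4 and 48 in the epithelium, 6.2-fold higher (4.55 to 8.61); it had 224 counts in the growth papilla and 584 in the pulp.

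Cornification genes lagged. Of 13 kept, 10 were at least 2-fold lower on day 4 (17.2% of all records were) and 5 at least 8-fold lower (1.23% of all records). None was 2-fold higher. With the deposited RPM values 4 of the 13 were at growth-phase level in place of 3, where 393 of all 6348 records were lower. CSTA, a protease inhibitor of the cornified envelope, had 1036 counts on day 4 and 39954 in the growth epithelium, 36.4-fold lower (34.2 to 38.8). FABP5, the epidermal fatty acid binding protein, had 5323 and 46133 counts, 8.18-fold lower (7.95 to 8.42). Both genes were abundant on day 4 in absolute terms, and both were far lower in the growth papilla (16 and 106 counts) and the pulp (13 and 40 counts).

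LY6EL, a member of the LY6 family of small surface proteins, had 336 and 3314 counts (9.31-fold lower, 8.32 to 10.5). The carboxypeptidase M gene had 126 and 1465 (11-fold lower, 9.15 to 13.3). EDWM, a gene of the avian epidermal differentiation complex, had 21 and 226 counts (10.2-fold lower, 6.49 to 16.7). The cornified envelope plakins were less far behind. Envoplakin (EVPL) had 155 counts on day 4 and 814 in the epithelium (4.96-fold lower, 4.17 to 5.93), and periplakin (PPL) had 142 and 629 (4.18-fold lower, 3.48 to 5.05). TGM3, a transglutaminase that crosslinks the envelope, had 81 and 300 (3.5-fold lower, 2.73 to 4.53), and ELOVL4, which elongates the fatty acids of barrier lipids, had 182 and 734 (3.81-fold lower, 3.23 to 4.50). The 3 members at growth-phase level were ACER1, a ceramidase, with 65 and 112 counts (0.615-fold, 0.446 to 0.842), the calcium-binding protein S100A11 with 971 and 1834 (0.561-fold, 0.518 to 0.606), and KLF4. The intervals of ACER1 and KLF4 span the 2-fold rule.

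Among the epithelial lists, beta keratins had the highest summed level in the growth epithelium and the lowest median ratio. The 9 records kept summed to 3520 CPM on day 4 and 88800 CPM in the growth epithelium. Of the 9, 7 were at least 2-fold lower on day 4 (17.2% of all records were), 4 at least 8-fold lower (1.23%) and 1 higher (21.2%). With the deposited RPM values 4 of the 9 were at growth-phase level in place of 2, where 393 of all 6348 records were lower. The 2 leading records, both described in the tables as similar to scale keratin, were LOC426911, with 9695 counts on day 4 and 245216 in the epithelium (23.9-fold lower, 23.4 to 24.4), and LOC426912, with 3190 and 122786 (36.3-fold lower, 35.1 to 37.7). LOC431317, another scale keratin record, had 32 and 1319 (38.9-fold lower, 27.4 to 57.1). The feather beta keratin record LOC769139 had 34 and 600 counts (16.7-fold lower, 11.8 to 24.3), and the feather keratin record LOC769121 had 56 and 176 (2.97-fold lower, 2.19 to 4.08). These genes have near-identical copies, so how reads were divided among the records is uncertain.

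1 beta keratin record ran the other way. LOC426910, also described as similar to scale keratin, had 828 counts on day 4 and 67 in the growth epithelium, 13.1-fold higher (10.2 to 17.0). It had 12 counts in the resting papilla and 1617 on day 2, so its level in the wounded follicles stood above both the resting papilla and the growing epithelium. It was listed with 5 counts in the growth papilla and not listed in the pulp.

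Alpha keratins were mixed. Of 11 kept, 7 were at growth-phase level (82.8% of all records were), 2 of them at least 2-fold higher (21.2%), and 4 were lower (17.2%). With the deposited RPM values 9 were at that level and the list's median log2 ratio was 0.43 in place of -0.25. On that scale 393 of all 6348 records were lower and the median of all records was 0.69. Higher on day 4 were KRT6A, in mammals a keratin of wounded and appendage epithelium, with 569 and 131 counts (4.60-fold, 3.80 to 5.61), and the larger of 2 KRT75 records, a keratin of appendage follicles, with 150 and 33 (4.81-fold, 3.28 to 7.25). The smaller KRT75 record had 32 and 45 counts. KRT71 had 92 and 109 counts (0.894-fold, 0.670 to 1.19). Lower were KRT75L2, with 110 and 561 (4.82-fold lower, 3.92 to 5.96), KRT9 with 163 and 368 (2.13-fold lower, 1.77 to 2.58) and KRT10, a keratin of suprabasal cells, with 735 and 1673 (2.15-fold lower, 1.97 to 2.35). The last 2 intervals reach below 2-fold. KRT8, a keratin of simple epithelium, had 87 and 2065 counts (22.4-fold lower, 18.1 to 28.1), but it also had 618 counts in the pulp, the other table with the epithelium's layout, against 10 to 79 in the papilla libraries and 34 on day 2.

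Of 7 kept records described as keratins and holding no symbol, none was 2-fold higher on day 4. LOC772080, described as similar to a type I hair keratin, had 11032 counts on day 4 and 34794 in the epithelium (2.98-fold lower, 2.92 to 3.04). LOC420043, described as similar to keratin 10, had 1921 and 1946 counts (1.05-fold, 0.981 to 1.11). LOC396479 had 1669 and 2592 (0.682-fold, 0.641 to 0.725), while LOC430658, a pseudogene in the RefSeq table, had 84 and 2325 (26.1-fold lower, 21.0 to 32.9). LOC426218 had 12 and 62 (4.88-fold lower, 2.60 to 9.95), LOC426217 had 42 and 90 (2.02-fold lower, 1.39 to 2.99), and LOC395095 was not listed on day 4 and had 29 (at least 9.13-fold lower). LOC430658 had 762 counts on day 2, 9.73-fold above day 4 (7.76 to 12.3), and LOC395095 had 18. LOC420043 went the other way, with 694 counts on day 2 (2.58-fold higher on day 4, 2.37 to 2.82). LOC426218 was not listed on day 2. LOC772080 (7326 counts on day 2), LOC396479 (1383) and LOC426217 (44) lay within 2-fold of day 4. The 7 records were not on a list and were chosen by their description.

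**Figure D3:**
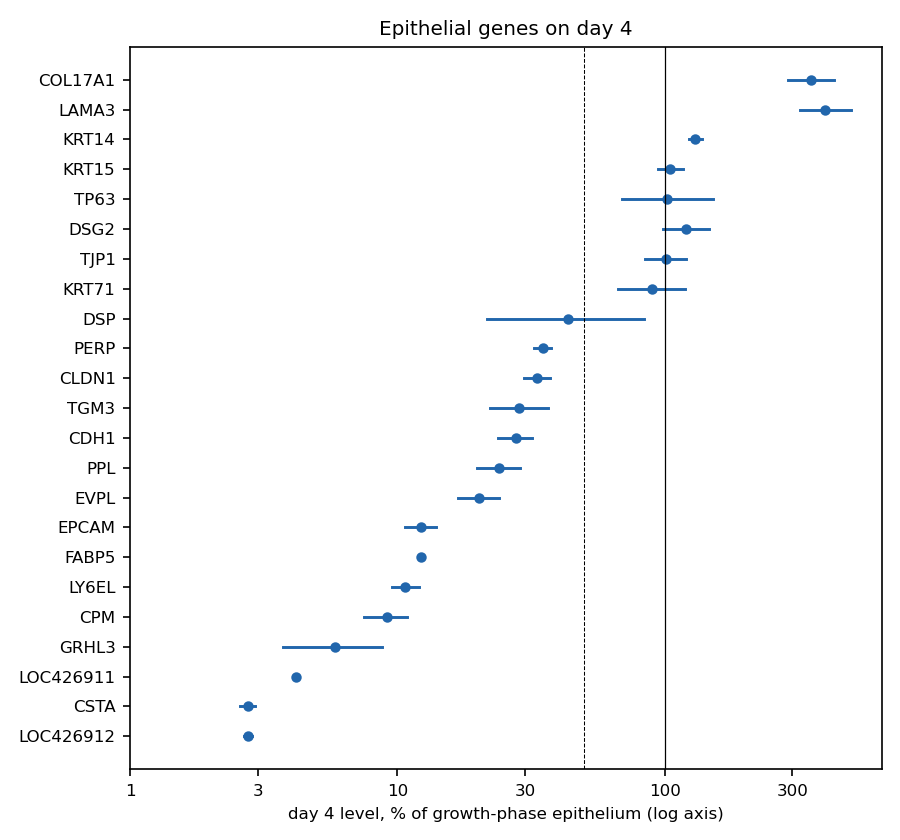
Day 4 level of 23 epithelial genes as a percent of the growth-phase epithelium (log axis); points are ratios of scaled counts, bars the 95% counting intervals, the solid line marks 100% and the dashed line 50%. KRT14, KRT15, TP63, COL17A1 and LAMA3 lie above 100%, CDH1 at 27.7%, EPCAM at 12.2%, and CSTA and LOC426912 at 2.75%.

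The same lists were read in the resting papilla and the day 2 follicle, against the same epithelium library, which all 3 ratios share. At growth-phase level stood 35 of the 76 epithelial genes in the resting papilla, 35 on day 2 and 36 on day 4, where 81.0%, 78.4% and 82.8% of all records did. On this scale the number was nearly the same at each time, whereas with the deposited RPM values it was 42, 41 and 55. With those values 393 of all 6348 records were lower on day 4. The resting papilla library already held epithelial transcripts, such as 1636 counts of KRT14 and 249 of CDH1. How the median moved differed between lists. For cornification it was -3.73 in the resting papilla, -2.97 on day 2 and -2.03 on day 4, and for beta keratins -3.23, -3.09 and -2.81. For alpha keratins it was -1.47, -0.64 and -0.25, for junctions -0.96, -0.64 and -0.93, and for transcription factors -1.32, -0.98 and -1.15. Basal attachment stood at 1.49, 1.13 and 1.11, with all 9 genes at growth-phase level in each of these libraries. Taken gene by gene, the median log2 difference of day 4 from day 2 was 0.28 for junctions and 0.35 for transcription factors. Their lower list medians on day 4 thus do not mean that most members fell. It was 0.65 for cornification, 1.58 for beta keratins, 0.51 for alpha keratins, 0.03 for basal attachment and 0.06 for all records. The numbers at growth-phase level did not rise with the list medians. In the same order they were 3, 0 and 3 of 13 cornification genes and 3, 1 and 2 of 9 beta keratins. The feather keratin record LOC769121 had 279 counts in the resting papilla, 15 on day 2, 56 on day 4 and 176 in the epithelium. The resting library is a papilla and the later 2 are follicles, so time and tissue cannot be told apart in the first step.

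Day 4 was also set against day 2 directly, a ratio in which the epithelium is not the denominator. The epithelium library still entered through the TMM factors and the choice of records. The minimum of 20 counts had to be met on day 4 or in the epithelium. A record that met it on day 2 alone was left out, so the tallies of higher and lower records are partly set by this minimum. Of the 6348 records 290 (4.57%) were at least 2-fold higher on day 4 than on day 2 and 180 (2.84%) were lower. Of the 76 epithelial genes 14 were higher and 2 were lower. The 14 included 5 of the 13 cornification genes and 5 of the 9 beta keratins, and no junction or basal attachment gene. FABP5 had 5323 counts on day 4 against 1429 on day 2 (3.47-fold higher, 3.28 to 3.69), and CSTA had 1036 against 353 (2.74-fold, 2.42 to 3.10). TGM3 had 81 against 16 (4.72-fold, 2.74 to 8.65) and PPL had 142 against 49 (2.70-fold, 1.94 to 3.82). All 4 remained at least 2-fold below the growth epithelium. In the resting papilla FABP5 had 1869 counts, CSTA 378 and TGM3 8. Other cornification genes did not rise: EVPL had 155 counts on day 4 against 167 on day 2 (0.866-fold, 0.691 to 1.08). EVPL had more in the resting papilla, 361 counts, where it was at growth-phase level (log2 ratio -0.97). The carboxypeptidase M gene had 126 against 162 (0.725-fold, 0.57 to 0.921), and 63 in the resting papilla.

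LOC426912 had 3190 counts on day 4 against 306 on day 2 (9.72-fold, 8.65 to 11), and LOC426911 had 9695 against 1784 (5.07-fold, 4.82 to 5.33). LOC426910 had 828 against 1617, or 0.478-fold (0.439 to 0.520). Of the 17 transcription factors 2 were higher than on day 2, ID1 with 281 counts against 112 (2.34-fold, 1.87 to 2.94) and EHF with 24 against 5 (4.48-fold, 1.67 to 15.0). 2 alpha keratins were higher, KRT8 with 87 against 34 and KRT80 with 15 against 2, and KRT75 was lower, with 150 against 310. EPCAM had 257 counts on day 4 against 210 on day 2 (1.14-fold, 0.948 to 1.38), CLDN1 435 against 391 (1.04-fold, 0.903 to 1.19), GRHL3 25 against 19 (1.23-fold, 0.649 to 2.36) and TP63 54 against 58 (0.868-fold, 0.588 to 1.28). CDH1 had 229 against 140 (1.53-fold, 1.23 to 1.90). KRT14 had 2454 against 3861, or 0.593-fold (0.563 to 0.624).

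**Figure D4:**
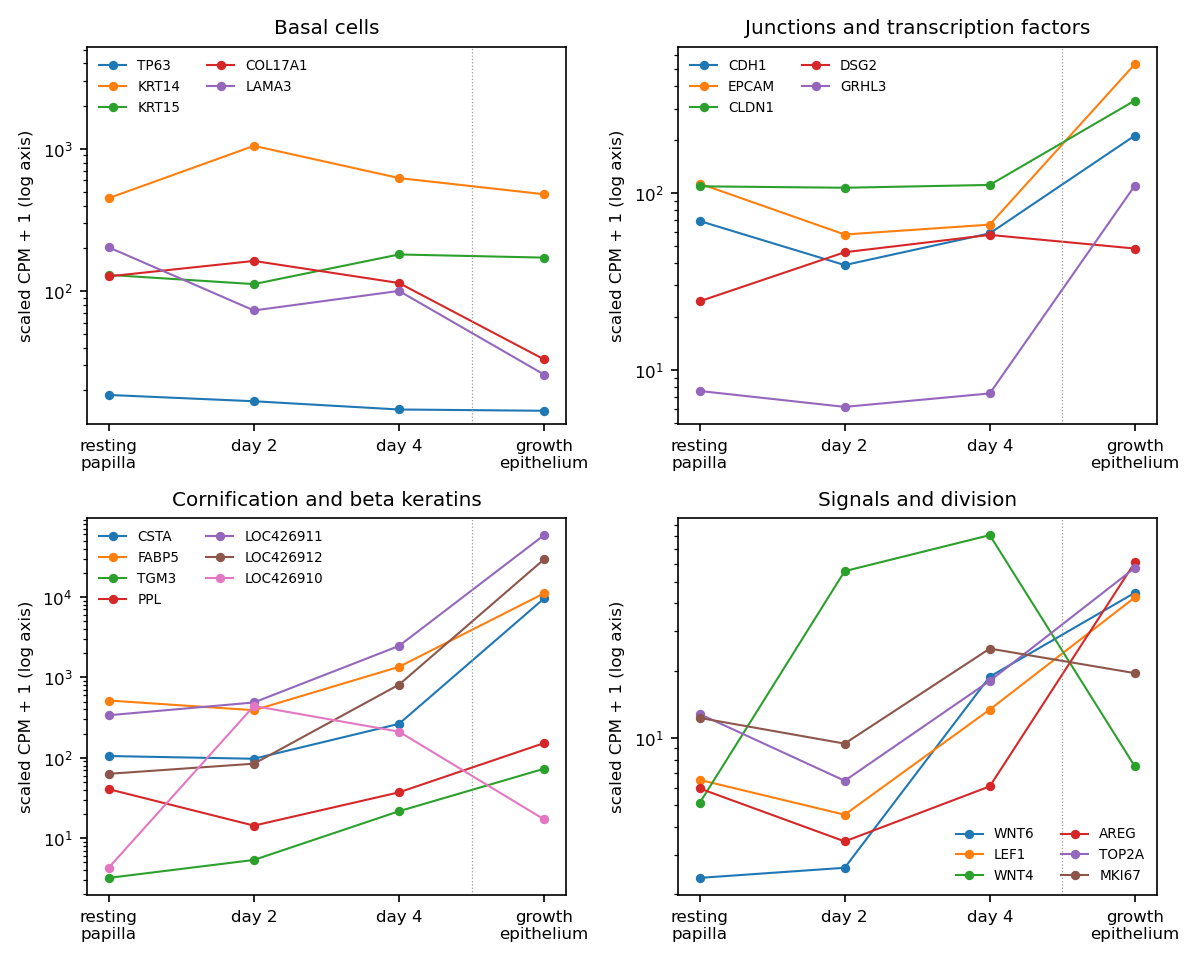
Scaled CPM plus 1 (log axis) of 23 genes in the resting papilla, the day 2 and day 4 follicles and the growth-phase epithelium, 1 library each; lines join the values of a gene and the dotted line separates the growth-phase tissue. COL17A1 and LAMA3 are lower in the epithelium than on day 4, CSTA, FABP5, TGM3, PPL, LOC426911 and LOC426912 are higher on day 4 than on day 2 and stay below the epithelium, and LOC426910 and WNT4 are highest in the wounded follicles.

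A wider set was formed from the growing feather: 286 of the 6348 records were at least 4-fold higher in the growth epithelium than in both the growth papilla and the pulp. That rule uses the epithelium library, which is also the denominator of the day 4 ratio, so the values are a description. On day 4 34 of the 286 (11.9%) were at growth-phase level, 252 were lower and 58 were at least 8-fold lower, with a median log2 ratio of -2.07. Of all records 82.8% were at that level, 17.2% were lower and 1.23% were at least 8-fold lower. Since 105 of the 286 were kept only by their epithelium count, these tallies are partly set by the 20-count minimum. With the deposited RPM values 68 records were at growth-phase level, of 196 that then passed the enrichment rule. On that scale 393 of all 6348 records were lower. On the TMM scale the median of the 286 was -2.49 in the resting papilla and -2.39 on day 2. Among those with a symbol and at least 100 counts in the epithelium, the 6 with the highest ratio were CHL1 (185 counts on day 4 and 137 in the epithelium), a neural cell adhesion molecule, DSG2, KRT15, KRT71, PLA2G4EL2 (96 and 114), a phospholipase A2 family gene, and GDPD2 (84 and 109), a phosphodiesterase. The 6 with the lowest ratio were the pigment genes MLANA, TYRP1, TYR and PMEL, CSTA, and LIPML5, a lipase family gene with 9 and 305 counts (32.0-fold lower, 16.6 to 70.7).

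Against day 2, 53 of the 286 records (18.5%) were at least 2-fold higher on day 4 and 6 (2.10%) were lower, where all records had 4.57% and 2.84%. Beside the keratins, FABP5 and TGM3, the records furthest above day 2 included GSTA3, a glutathione transferase, with 370 counts on day 4 against 73 on day 2 (4.73-fold, 3.67 to 6.16) and 1159 in the growth epithelium. PTPRZ1, a receptor tyrosine phosphatase, had 161 against 40 (3.75-fold, 2.64 to 5.45) and 404 in the epithelium, but also 115 in the resting papilla. HSD3B1, a steroid dehydrogenase, had 58 against 5 (10.8-fold, 4.38 to 34.6) and 78 in the epithelium, but also 83 in the resting papilla. These 3 were picked after their values were seen.

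**Figure D5:**
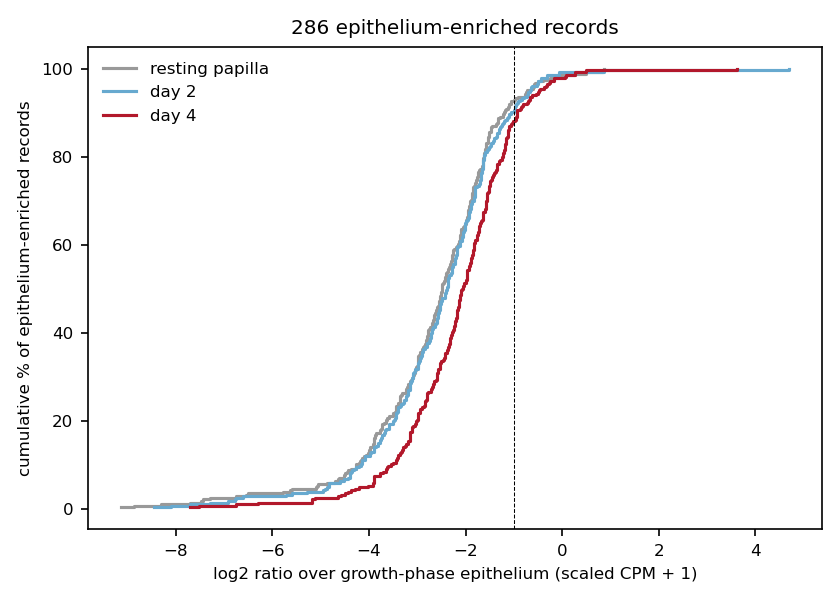
Cumulative percent of the 286 epithelium-enriched records (vertical) by log2 ratio over the growth-phase epithelium (horizontal, scaled CPM plus 1) in the resting papilla, day 2 and day 4 libraries; the dashed line marks 2-fold lower. The day 4 curve lies to the right of the other 2 over most of its length, with medians of -2.49, -2.39 and -2.07 in the order resting, day 2 and day 4.

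Pigment cell genes were nearly missing from the day 4 follicle. All 7 melanocyte genes kept were at least 2-fold lower (17.2% of all records were), with a median log2 ratio of -6.29. They summed to 16.8 CPM on day 4 and 807 CPM in the growth epithelium. 5 of the 7 were kept only by their epithelium count, so the tally is partly set by the 20-count minimum. MLANA and TYR, a melanosome protein and the rate-limiting enzyme of melanin synthesis, were not listed on day 4 and had 872 and 444 counts in the epithelium, which makes MLANA at least 274-fold lower and TYR at least 140-fold lower, with 3 counts taken as the bound. TYRP1, a further melanin enzyme, had 2 and 1151 counts (543-fold lower, 150 to 4490), and PMEL, which forms melanosome fibrils, had 4 and 655 (155-fold lower, 60.1 to 569). KIT, the receptor that melanoblasts need, was less far behind, with 31 and 162 counts (4.93-fold lower, 3.34 to 7.50). MLANA, TYR and PMEL were not listed on day 2 or in the resting papilla either, and TYR had 49 counts in the pulp.

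Of the signals that pattern the feather epithelium, sonic hedgehog (SHH), the ligand expressed in barb ridge epithelium, was listed in the growth epithelium alone among the 6 libraries, with 48 counts, and was at least 15.1-fold lower on day 4. Of 5 hedgehog pathway genes kept, 1 was higher, 1 lower and 3 within 2-fold, shares near those of all records (21.2%, 17.2% and 61.6%). The receptor and target PTCH1 had 156 counts on day 4 and 88 in the epithelium (1.88-fold, 1.44 to 2.47), the transducer SMO had 136 and 85 (1.69-fold, 1.28 to 2.25) and the co-receptor BOC had 460 and 150 (3.25-fold, 2.70 to 3.93). PTCH1 had 218 counts in the pulp, SMO had 269 and BOC had 1129. The ligand was thus not listed on day 4 while its receptors were at or above the epithelium's level.

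Of 26 Wnt pathway genes kept, 12 were higher on day 4 (21.2% of all records were), 8 lower (17.2%) and 6 within 2-fold (61.6%). Of the 26, 8 were kept only by day 4 and 5 only by the epithelium. Among ligands, WNT6 had 70 counts on day 4 and 182 in the epithelium (2.46-fold lower, 1.85 to 3.28), with 5 in the resting papilla and 6 on day 2. WNT5A had 181 and 164 (1.17-fold, 0.941 to 1.45), and WNT4 had 314 and 27 (12.3-fold higher, 8.30 to 19), with 201 counts on day 2 and 15 in the resting papilla. In the pulp WNT5A had 512 counts and WNT6 had 69. The transcriptional effector LEF1 had 49 and 173 counts (3.33-fold lower, 2.42 to 4.68), but LEF1 was also abundant in the pulp (221 counts). The receptors LGR4 and FZD8 had 145 and 122 counts on day 4 against 138 and 100 in the epithelium, within 2-fold.

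The 12 higher Wnt pathway genes included 4 secreted inhibitors of the SFRP family: SFRP2 had 347 counts on day 4 and 2 in the epithelium, FRZB 1081 and 22, SFRP1 244 and 7, and SFRP4 142 and 2. RSPO3, a Wnt agonist, had 105 counts on day 4 and was not listed in the epithelium. All 5 were also listed in the growth papilla and pulp, FRZB with 2676 and 3580 counts. BMP and TGF-beta genes were higher in 7 of 12 kept and lower in none, where 21.2% and 17.2% of all records were. Of the 12, 3 were kept only by day 4. BMP4 had 1021 counts on day 4 and 9 in the epithelium (120-fold higher, 63.0 to 263) and 875 in the growth papilla, while BMP7 had 143 and 106 (1.43-fold, 1.10 to 1.85) and TGFB3 159 and 263 (0.640-fold, 0.522 to 0.782). BMP2 had 2 and 6 counts, too few for a comparison.

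Of 13 genes of the FGF, EGF and EDA pathways kept, 1 was higher (21.2% of all records were) and 5 were lower (17.2%). Of the 13, 1 was kept only by day 4 and 4 only by the epithelium, so this tally is partly set by the 20-count minimum. Of the 5 lower genes, 4 were ligands of the EGF receptor family. AREG had 20 counts on day 4 and 250 in the growth epithelium (11.8-fold lower, 7.48 to 19.7), BTC had 40 and 300 (7.08-fold lower, 5.08 to 10.1), EREG had 5 and 20 (3.78-fold lower, 1.38 to 12.9), and TGFA was not listed on day 4 and had 20 (at least 6.30-fold lower). EREG and TGFA only just reached the 20-count minimum, and the EREG interval spans the 2-fold rule. EDARADD, the adaptor of the ectodysplasin receptor, had 17 and 66 (3.67-fold lower, 2.13 to 6.67). FGFR2, an FGF receptor of epithelium, had 177 and 202 counts (0.928-fold, 0.754 to 1.14), whereas FGFR1 had 808 and 155 (5.52-fold higher, 4.64 to 6.6) and 1221 in the pulp. Of 8 Notch genes kept, 2 were higher (LFNG and HEY1), 1 was lower (RFNG) and 5 lay within 2-fold, shares near those of all records; the median log2 ratio was -0.68, or 0.02 with the deposited RPM values. NOTCH1 had 778 and 1588 counts (0.519-fold, 0.476 to 0.566), and the ligand JAG2 had 212 and 420 (0.535-fold, 0.451 to 0.632). Both intervals span the 2-fold rule.

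Cell division genes stood at the growth level about as often as all records did. Of 27 kept, 22 were at that level (81.5%, against 82.8%), 5 were lower and 1 was higher, with a median log2 ratio of -0.22 (0.50 with the deposited RPM values). The medians were -1.03 in the resting papilla and -1.15 on day 2, where 13 and 11 of the 27 were at that level. MKI67, a nuclear protein of cycling cells, had 95 counts on day 4 and 77 in the epithelium (1.31-fold, 0.957 to 1.79). The mitotic kinase CDK1 had 656 and 435 (1.6-fold, 1.41 to 1.81), and the replication helicase subunit MCM5 had 92 and 101 (0.965-fold, 0.719 to 1.29). TOP2A, a DNA topoisomerase, had 67 and 236 (3.33-fold lower, 2.53 to 4.43), the thymidylate synthase TYMS 46 and 172 (3.53-fold lower, 2.54 to 5.0), and STMN1, a regulator of microtubules, 393 and 1597 (3.84-fold lower, 3.43 to 4.30). CDC20 stood at 134 and 289, and its interval (1.65 to 2.52-fold lower) spans the rule.

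Against day 2, 9 of the 27 division genes were at least 2-fold higher on day 4 and none was lower. Of all records 4.57% were higher and 2.84% lower. MKI67 had 95 counts on day 4 against 31 on day 2 (2.86-fold, 1.89 to 4.44), CDK1 656 against 224 (2.73-fold, 2.34 to 3.19), MCM5 92 against 35 (2.45-fold, 1.64 to 3.73) and TOP2A 67 against 20 (3.12-fold, 1.87 to 5.44). Division genes are expressed in any dividing cell, and MKI67 had 206 counts in the pulp, so the cells they came from were not identified.

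Lists of markers of other cell types differed in direction. Of 26 fibroblast and matrix genes kept, 24 were higher, and the list summed to 7700 CPM on day 4 and 247 CPM in the epithelium, where COL1A1, VIM, DPT and TWIST2 were not listed. Smooth muscle genes were higher in 12 of 12 (4700 and 365 CPM), endothelial genes in 13 of 13 (499 and 26.4 CPM), leukocyte genes in 12 of 12 (636 and 32.1 CPM) and dermal papilla genes in 10 of 11 (981 and 96.4 CPM), where 21.2% of all records were higher. These tallies are partly set by the 20-count minimum, since 12 of the 26 fibroblast, 3 of the 12 smooth muscle, 12 of the 13 endothelial, 11 of the 12 leukocyte and 7 of the 11 papilla genes were kept only by their day 4 count. The erythroid list had 1 gene higher and 2 lower of 4 kept, and both nerve and glia genes and the 1 skeletal muscle gene kept were lower, as were the pigment cell genes above. COL1A2, a chain of type I collagen, had 8318 counts on day 4 and 206 in the epithelium (42.8-fold, 37.2 to 49.3), the endothelial cadherin CDH5 had 245 and 5 (51.9-fold higher), and the MHC class II gene BLB2 had 537 and 9 (63.2-fold higher). The 6 epithelial lists together summed to 9840 CPM on day 4 and 120000 CPM in the epithelium. Most of the epithelium's sum came from beta keratins (3520 and 88800 CPM) and cornification genes (2840 and 25100 CPM). Junction genes summed to 1340 and 3650 CPM, transcription factors to 483 and 949, and alpha keratins to 1300 and 1850. Basal attachment genes went the other way, with 1240 and 807 CPM. Some genes were on 2 lists. On day 4 KRT14, KRT15, TP63 and DSG2 stood at 1.02 to 1.30 times their growth level. CLDN1 stood at 33.3% of its growth level, CDH1 at 27.7%, EPCAM at 12.2% and CSTA at 2.75%. The part of the cell mixture in the lag of epithelial genes was not tested.

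Of the named records that had 200 or more counts in 1 of the pair, the 10 highest on day 4 were PRRX1, PENK, CRHBP, BMP4, LUM, SFRP2, IL15, COL6A1, CLEC3B and LRRC17. PRRX1, a mesenchymal homeobox factor, had 1141 counts on day 4 and 2 in the epithelium (604-fold higher, 167 to 4990). PENK, which encodes the enkephalin precursor, had 8860 and 46 (204-fold higher, 153 to 279), and CRHBP, a binding protein of corticotropin-releasing hormone, had 380 and was not listed in the epithelium (at least 134-fold higher). The 10 lowest were MLANA, TYRP1, TYR, PMEL, FASN, CHCHD2, CSTA, SEMA3G, LIPML5 and KRT8. 5 of these (TYR, FASN, CHCHD2, SEMA3G and KRT8) belong to 59 records in which epithelium and pulp were both at least 4-fold above or both at least 4-fold below each of the other 4 libraries. FASN, the fatty acid synthase, had 4 counts on day 4 and 336 in the epithelium, but also 218 in the pulp, and CHCHD2 had 25 and 1130, and 1593 in the pulp. None of the 10 highest records was of this kind, and of the 76 epithelial genes KRT8 was the one that was. Other lists held such records too, among them DES, MYH11 and MYLK of smooth muscle, DCN of fibroblasts and CHRDL1 of the BMP genes.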

How the data were processed

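Total RNA was extracted with Trizol and sequenced by Illumina protocols, per the labels' protocols. The authors deposited raw counts for RefSeq transcript records, per the file headers, as whole numbers of 2 or more. A second column, headed TPM, was not divided by length: the deposited values are in RPM, relative to a library total above the listed sum, and the totals were recovered from the RPM of records holding 500 or more counts. The submitters' processing notes name mm10, which is a mouse build, while the records are of chicken. No aligner, counter or strand setting is named: these were not given in the sources used here. Every value column of the 6 tables was used or described, and 0 were set aside.

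edgeR 4.0.16 (R 4.3.3) gave TMM factors from all 6 libraries and the recovered totals: 1.17 for day 4 and 0.688 for the epithelium. Log2 ratios used scaled CPM plus 1; a fold for 1 gene divides scaled counts without a pseudocount, and has exact conditional binomial (Clopper-Pearson) 95% intervals, or a bound at 3 counts where a record was not listed. 1 count was worth 0.254 CPM on day 4 and 0.240 CPM in the epithelium. Records were named from the tables or from the RefSeq gene table, by gene identifier (4980) or accession (11); 1151 of 10964 stayed without a symbol and KRT5 was not matched. For a gene with several records, the one with most counts was used. 19 older symbols were matched by hand after seeing the tables.

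Members and the 28 gene lists were chosen with earlier results of these data known. Named genes were the 10 highest and 10 lowest ratios with at least 200 counts, up to 5 extreme members of each list and up to 4 near a ratio of 0 with at least 100 counts in epithelial and signalling lists, the 6 highest and 6 lowest enriched records, and a set of markers; other genes named were picked after their values were seen. The calculations were tested on simulated data. Alternatives were median-of-ratios scaling (DESeq2 1.42.0) and 12 other settings. Python 3.11.15, numpy 2.4.6, pandas 2.3.3, scipy 1.17.1 and matplotlib 3.10.9 were used. Coordinates and sequences were not used.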

Additional observations from a re-analysis of the deposited data

How the results depend on the processing

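13 alternatives were tried; those for the day 2, resting and enriched counts were added after seeing the data. Of 1721 values of named genes under them, 1480 moved little, 241 moved further and 0 of those called changed sign. With the deposited RPM values 2474 records were higher on day 4 and 393 lower, 55 epithelial genes were at growth-phase level and 21 lagged, with 18 junction genes, 14 transcription factors and 4 beta keratins at that level; the number of enriched records at that level was 68 in place of 34. With no minimum count 2064 records were higher, and 16 junction genes, 13 transcription factors and 5 cornification genes were at that level; the median of the nerve and glia list became 0.60, in place of -1.55 over 2 genes. With a minimum of 200 counts 358 records were higher and 430 lower, and 16 epithelial genes were at growth-phase level on day 4, 16 on day 2 and 15 in the resting papilla, among them on day 4 4 junction genes, 3 transcription factors, 3 alpha keratins and 1 beta keratin; 139 records were then enriched, and 168 with a pseudocount of 5. With a 4-fold rule 662 records were higher and 262 lower, 60 epithelial genes were at growth-phase level and 16 lagged, with 19 junction genes, 16 transcription factors, 6 cornification genes and 4 beta keratins at that level. The cause of these shifts was not tested, beyond fewer or more records entering under the count and size rules. The other counts stayed within 1.5 times their value.

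No paired analysis was possible because each group has 1 library. For the same reason no library was left out. Depth limits genes under 20 counts, such as JUP and BMP2, whose difference was not detectable, and SHH, TGFA, MLANA and TYR on day 4, where the bound rests on 3 counts. Spread between birds is unknown.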

Other observations

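Genes of translation and respiration were lower on day 4 in part. Of 53 ribosomal protein genes kept, 19 were at least 2-fold lower on day 4 and none was higher, where 17.2% and 21.2% of all records were. Their median log2 ratio was -0.68, with summed levels of 77800 CPM on day 4 and 139000 CPM in the growth epithelium. RPL4 had 1980 counts on day 4 and 9173 in the epithelium, and RPS27A had 3278 and 13606. RPLP1, with the most counts of the list, had 31880 and 49793, within 2-fold. Ribosomal protein genes have many near-identical copies, so how reads were divided among them is uncertain. Of 49 oxidative phosphorylation genes, 17 were lower and none higher (median -0.69), with UQCRC1, a complex III subunit, at 139 and 776 counts. Of 19 housekeeping genes 3 were lower and none higher (median -0.18). With the deposited RPM values the medians were 0.08, 0.04 and 0.55, so the sign of these 3 medians rests on the TMM scale. The median of all records was 0.69 with those values and -0.03 on the TMM scale. All 3 lists lay below it on both scales.

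Glycolytic and hypoxia genes were split, with 4 of 22 higher and 8 lower, where 21.2% and 17.2% of all records were. Their median log2 ratio was -0.41, or 0.28 with the deposited RPM values. The enolase ENO1 had 1309 counts on day 4 and 5477 in the growth epithelium (0.253-fold), and PGAM1, a mutase of lower glycolysis, had 1057 and 3130 (0.358-fold). GAPDH had 13648 and 15774 (0.916-fold) and LDHA 465 and 551 (0.894-fold). Higher were the hexokinase HK1, with 55 and 12 counts (4.85-fold), and adrenomedullin (ADM), with 233 and 37 (6.67-fold).

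Wound genes were higher in 16 of 18 kept (21.2% of all records were) and lower in none, but 10 of the 18 were kept only by their day 4 count. The list had summed levels of 1730 CPM on day 4 and 282 CPM in the epithelium, and 3500 CPM on day 2. It also summed to 1810 CPM in the resting papilla, 1950 CPM in the growth papilla and 4250 CPM in the pulp, each above day 4. MMP9, a gelatinase of wounds, had 86 counts on day 4 and was not listed in the growth epithelium, papilla or pulp or in the resting papilla; on day 2 it had 222. SPP1 (osteopontin) had 93 counts on day 4 against 273 on day 2 and was not listed in the 3 growth-phase libraries. LTF, an iron-binding protein, had 208 counts on day 4 against 670 on day 2, and 2 in the epithelium.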
